A study of Mus musculus with 6 samples.

Results

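The epithelial oxidases described here are enzymes of the gut lining that make hydrogen peroxide, superoxide or nitric oxide, taken with the partner proteins that some of them need. The set was chosen by function and holds 5 genes, Duox2, Duoxa2, Nox1, Noxo1 and Nos2. Each was looked for by transcript accession among the 41174 probes, whose files carry no gene names, and by name in the authors' deposited tables. A probe was matched for 3 of the 5, Duoxa2 (A_51_P365744), Nox1 (A_51_P364714) and Nos2 (A_51_P163942), with 1 probe each. No probe was matched to Duox2 or Noxo1, and their transcripts were not analysed here. All 3 matched genes passed the filter on dim probes and were among the 14698 genes tested. Nos2 passed it only through the knockout channels, well above background on 3 arrays, against 0 for the wild type.

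DUOX2 is a dual oxidase of the apical membrane of gut epithelial cells that releases hydrogen peroxide towards the lumen. It leaves the endoplasmic reticulum and works only with its maturation factor DUOXA2, and both are known to be induced by microbes. NOX1 is the superoxide-producing NADPH oxidase typical of colonic epithelium, and it needs the membrane subunit p22phox (Cyba), the organiser NOXO1, the activator NOXA1 and the GTPase RAC1. NOS2 is the inducible nitric oxide synthase, made by epithelial cells and macrophages after cytokine or bacterial stimulation, and it depends on arginine and tetrahydrobiopterin.

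The samples came from Tlr2-/- mice of the C57BL/6 strain at postnatal day 90, set against wild-type (WT) C57BL/6 mice of the same age. Tlr2 encodes a cell-surface receptor for bacterial lipoproteins, and the labels describe a knockout of the gene without naming the allele. The tissue was colonic mucosa sheared off with a glass slide, a mixture of epithelium and underlying cells. RNA was measured on 4 two-colour arrays, each holding 1 Tlr2-/- and 1 WT sample, here called pairs 1, 2, 4 and 5 after the number of the knockout sample. The Tlr2-/- sample carried the dye Cy3 in pairs 1 and 2 and Cy5 in pairs 4 and 5. No label says that each sample was a separate mouse, so p-values measure only the spread between these arrays.

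The probe of Tlr2 was lower in the Tlr2-/- sample on all 4 arrays, at a mean log2 ratio of -4.86 ± 0.64 (SD, n = 4), and in 40 of 40 spots. Of 43379 spots, 67.7% to 71.9% were well above background in the Tlr2-/- channels and 63.3% to 76.5% in the WT channels. Pair 1 stood apart from the other arrays. Its log2 ratios correlated across 14687 genes at -0.21, -0.42 and -0.11 with those of pairs 2, 4 and 5, which correlated with each other at 0.43 to 0.57 (genes are not independent replicates). Each member is therefore also given without pair 1. Of 14 epithelial marker genes 13 were measured, and all 13 were well above background on every array. Of these, 10 were saturated in a channel of at least 1 array, so their levels do not compare the amount of epithelium between samples. In a scraped tissue, fewer cells of a type and less RNA per cell cannot be told apart.

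Duoxa2, Duox2 and their paralogs Duoxa1 and Duox1 are neighbours on chromosome 2. The windows from 250 bases before to 50 bases after the transcription start of Duoxa2 and Nox1 are shown, because these genes are the measured partner or enzyme of the epithelial NADPH oxidases (RefSeq, GRCm38.p6). The Duoxa2 window is chr2:122298650-122298949 on the plus strand, and the Duox2 window lies on the opposite strand at chr2:122298178-122298477. The Nox1 window is chrX:134111805-134112104 on the minus strand. A window was found for 4 of the 5 members. Capitals mark, in Duoxa2, an AP-1 match at -168 and a TATA box at -30. In Nox1 they mark a core of the intestinal factor CDX2 at -180, overlapping kappa B matches from -92, and a CDX2 core of the other strand at 43 after the start.
Duoxa2: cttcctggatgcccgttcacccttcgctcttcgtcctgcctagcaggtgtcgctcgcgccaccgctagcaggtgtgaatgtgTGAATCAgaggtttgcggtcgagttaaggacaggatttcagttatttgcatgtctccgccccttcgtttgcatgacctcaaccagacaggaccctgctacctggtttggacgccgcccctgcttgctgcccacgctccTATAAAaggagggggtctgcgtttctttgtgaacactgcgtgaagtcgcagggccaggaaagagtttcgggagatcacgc
Nox1: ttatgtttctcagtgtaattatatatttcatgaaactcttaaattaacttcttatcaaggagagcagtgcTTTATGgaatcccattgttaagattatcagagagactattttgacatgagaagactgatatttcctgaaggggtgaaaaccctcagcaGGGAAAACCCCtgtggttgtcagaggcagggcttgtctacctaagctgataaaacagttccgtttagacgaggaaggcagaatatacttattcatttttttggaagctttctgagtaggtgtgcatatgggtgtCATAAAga
Motifs were searched on both strands, and their share is given over 32851 promoter windows of the same length. The letters TGANTCA, bound by AP-1 factors, occur in 7.81% of windows. A TATA box, TATAAA, occurs in 13.6% of them. The core of CDX2 sites, TTTATG, occurs in 11.9%. The loose kappa B core, GGG and CC parted by any 5 bases, occurs in 50.8%, so its presence is common. STAT sites, searched as TTCNNNGAA, occur in 8.3% and the interferon response element in 3.44%, and neither is in the 4 member windows. A match describes letters only.

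Duoxa2, the maturation factor of DUOX2, had the largest mean ratio of the 3 measured members in this processing. It was higher in the Tlr2-/- sample of every pair, at a mean 2.23-fold, and the size varied widely between pairs. Its channel level (log2, after normalisation between arrays) was 12.84, 11.11, 11.77 and 13.14 in Tlr2-/- samples of pairs 1, 2, 4 and 5. In the WT samples it was 11.37, 10.93, 10.82 and 11.11. The WT samples lay close together (mean 11.06 ± 0.24, SD, n = 4), whereas the Tlr2-/- samples were spread out (12.21 ± 0.94). The groups overlapped, because the Tlr2-/- sample of pair 2 lay below the WT sample of pair 1 and level with that of pair 5. The spot was well above background in both channels of all 4 arrays, with signals of 1131 to 11355.5, and none was saturated.

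**Figure D1:**
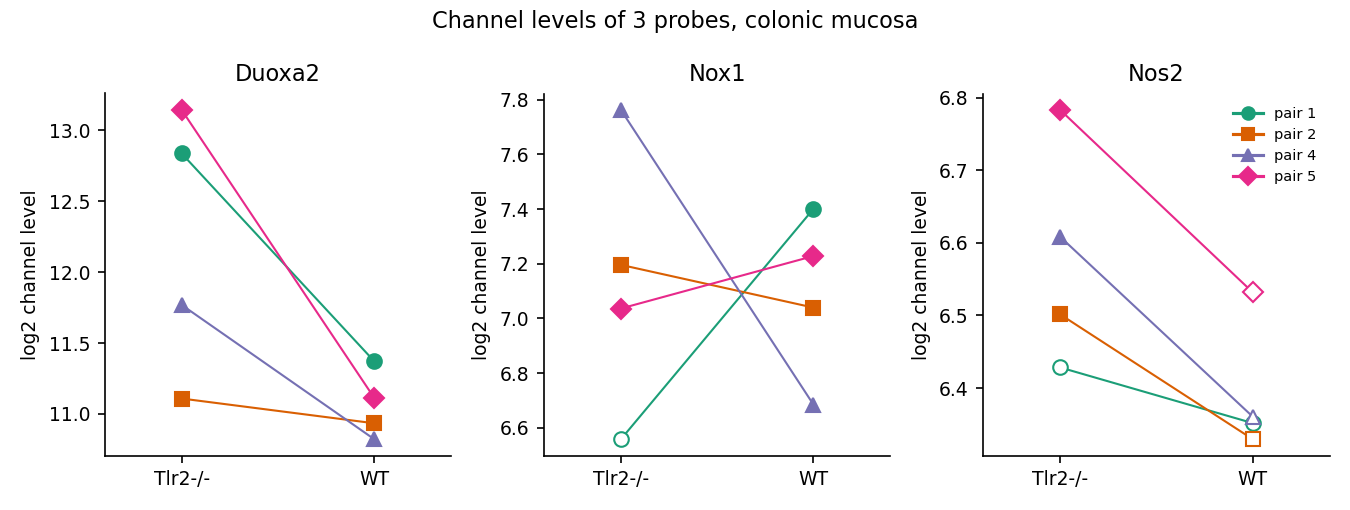
Channel levels (log2, after loess and between-array scaling, arbitrary units) of the probes of Duoxa2, Nox1 and Nos2 in Tlr2-/- samples (left) and WT samples (right). Lines join the samples of 1 array, and open symbols were not well above background. All 4 lines of Duoxa2 and of Nos2 fall towards WT, by 0.17 to 2.03 and by 0.08 to 0.25, while those of Nox1 cross. Each panel has its own axis.

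The log2 ratios of Duoxa2 were 1.47, 0.17, 0.95 and 2.03 for pairs 1, 2, 4 and 5, a mean of 1.16 ± 0.79 (SD, n = 4). Pair 5 was at 4.09-fold and pair 2 at 1.13-fold. In the limma fit across all genes the standard error was 0.31, with a 95% interval of 0.31 to 2.00 (1.24-fold to 4.00-fold), and the Benjamini-Hochberg adjusted p was 0.595. Duoxa2 thus did not pass limma, in which 0 of 14698 genes were called higher in Tlr2-/- samples and 0 lower (adjusted p under 0.05, 0% each). At an unadjusted limma p under 0.05, 567 genes were higher (3.86%) and 624 lower (4.25%), and Duoxa2 was among those higher. It did pass the rule the submitters state in their design, a change over 1.6-fold on at least 2 arrays with no array contradicting. That rule took 112 genes as higher (0.762%) and 103 as lower (0.701%), and by mean ratio Duoxa2 ranked 23 of 14698 from the highest.

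A same sign on all 4 arrays is less rare, with 1055 genes higher (7.18%) and 1235 lower (8.4%). With the Tlr2-/- sample in Cy3 the mean log2 ratio of Duoxa2 was 0.82 (pairs 1 and 2), and with it in Cy5 1.49 (pairs 4 and 5). Leaving out pair 1 gave Duoxa2 a mean of 1.05, and leaving out pair 5, the highest, 0.86. In the authors' deposited table of increased transcripts, Duoxa2 has ratios of 2.37, 1.20, 2.13 and 4.22 on their arrays and an average of 2.48. Agilent's own processed signals gave log2 ratios of 1.24, 0.26, 1.09 and 2.08 for pairs 1, 2, 4 and 5. On the fold scale these are the deposited ratios in the same order, so the deposited values are no separate measurement. The pair 1 value depended on how dyes were balanced, at 1.47 with loess and 0.45 with median centring.

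Adipocyte markers, of which 6 of 7 were measured and 4 were above background on all arrays (Lep did not pass the filter), also differed between pairs. Their median log2 ratios were -0.20, 0.06, 0.97 and 2.32 for pairs 1, 2, 4 and 5. Their summed level was 12.03 to 14.76 in Tlr2-/- samples and 11.45 to 13.11 in WT samples (log2). Without Cidec, the brightest of them, it was 9.63 to 14.23 in Tlr2-/- and 9.80 to 11.55 in WT samples. The pattern of the medians resembles that of Duoxa2 in pairs 4 and 5 and not in pair 1, where Duoxa2 was at 1.47. The part of fat tissue in the Duoxa2 ratio was not tested.

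The 3 genes with ratios closest to those of Duoxa2 over the 4 arrays, by root mean square difference, were Zbp1, Pcdh17 and Cirbp. Zbp1, an interferon-induced sensor of nucleic acids, differed from Duoxa2 by 0.39 and was at 1.37, 0.65, 0.39 and 1.78. Pcdh17, a protocadherin, differed by 0.42 and had a mean log2 ratio of 1.11 ± 0.80 (SD, n = 4). Cirbp, a cold-inducible RNA-binding protein, differed by 0.49 and had a mean of 1.06 ± 0.44. The paralog and neighbour Duox1, a dual oxidase better known from airway and thyroid, was at -0.02 ± 0.07 with a dim probe (mean level 6.69 in Tlr2-/- and 6.71 in WT samples, log2).

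Nox1, the catalytic subunit of the colonic superoxide-producing oxidase, had no common direction. It was lower in the Tlr2-/- sample in pairs 1 and 5 and higher in pairs 2 and 4. Its channel level was 6.56, 7.20, 7.76 and 7.04 in Tlr2-/- samples, against 7.40, 7.04, 6.68 and 7.23 in WT samples (log2, pairs 1, 2, 4 and 5). The range of the Tlr2-/- samples enclosed that of the WT samples. The Tlr2-/- sample of pair 1 was not well above background, the other 7 samples were, and none was saturated. The signals were 69, 119, 204.5 and 122 in Tlr2-/- channels and 189, 142.5, 71.5 and 116 in WT channels, so this is a dim probe.

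The log2 ratios of Nox1 were -0.84, 0.16, 1.08 and -0.19, a mean of 0.05 ± 0.80 (SD, n = 4). The 95% interval of the limma estimate was -0.76 to 0.86 (0.589-fold to 1.82-fold) and the adjusted p was 0.978, so neither a rise nor a drop of that size is excluded by these arrays. Across all genes tested, Nox1 ranked 933 of 14698 by the SD of its 4 ratios from the widest. Leaving out pair 1 moved its mean to 0.35, and leaving out pair 4 moved it to -0.29. It was -0.34 with the Tlr2-/- sample in Cy3 and 0.44 with it in Cy5. Outside the naming rule, and chosen after their values were seen, the genes closest to Nox1 were Slc24a3, a sodium/calcium exchanger, at a root mean square difference of 0.077, St6galnac4, a sialyltransferase, also at 0.077, and Zfp750, an epidermal differentiation factor, at 0.13.

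Genes that mark position along the colon varied between the same pairs. Hox genes of paralog groups 10 to 13 are the posterior members of their clusters, known for higher expression in the distal gut, and 8 of 12 were measured. Their median log2 ratio was -1.48, 0.50, 1.21 and 0.50 for pairs 1, 2, 4 and 5. Paralog groups 1 to 9, with 21 of 27 measured, had medians of 0.71, -0.21, -0.33 and 0.08. The measured genes of group 13 were Hoxa13, at -1.66, 0.79, 1.89 and 1.20, Hoxb13, at -3.03, -0.47, 1.14 and -1.04, and Hoxd13, at -4.76, 0.43, 2.15 and 0.58. The Tlr2-/- sample of pair 1 was not well above background for Hoxd13, so its value there is no exact ratio. Pair 1 was lowest and pair 4 highest both for Nox1 and for the median of the posterior Hox genes. Not every gene followed that median, since Hoxa11 was highest in pair 2 (1.88) and Hoxd12 in pair 5 (0.04), and in pair 5 Nox1 and the median had opposite signs. The part of sampling position in the Nox1 ratios was not tested.

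Other subunits of the NOX1 enzyme had patterns of their own over the 4 arrays. Noxa1, the activator, was lower in the Tlr2-/- sample of every pair, at -0.36, -0.73, -0.93 and -0.12, a mean log2 ratio of -0.53 ± 0.36 (SD, n = 4, limma adjusted p = 0.595). In this processing it passed the submitters' rule as lower. Cyba, which codes for the membrane subunit p22phox, was at 0.76 in pair 1 and at -1.18, -1.61 and -1.34 in pairs 2, 4 and 5, a mean of -0.84 ± 1.08. Rac1, the GTPase of the complex, ran the opposite way, at -0.74 in pair 1 and 0.70, 0.89 and 1.11 in the others, with Tlr2-/- channels saturated on 2 arrays and a WT channel on 1. Neither passed limma or the rule, and pair 1 carried the opposite sign in both.

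**Figure D2:**
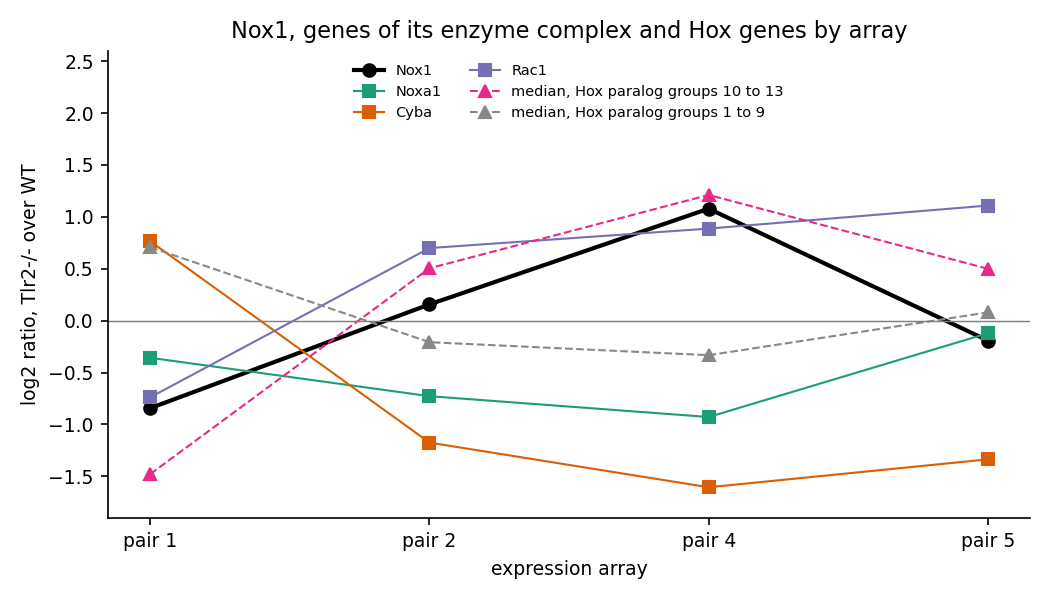
Log2 ratio (Tlr2-/- over WT) on each expression array for Nox1, for the subunits Noxa1, Cyba and Rac1, and for the medians of posterior and anterior Hox genes. Nox1 runs between -0.84 in pair 1 and 1.08 in pair 4, Noxa1 stays below 0 on all arrays, and Cyba and Rac1 change sign between pair 1 and the others. Lines only guide the eye between separate arrays.

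Of 12 further NADPH oxidase and DUOX family genes 10 were measured, 0 were called by limma, 0 passed the rule as higher and 1 as lower (Noxa1). Their median mean log2 ratio was -0.03, against -0.01 over all genes tested, of which the rule took 0.762% as higher and 0.701% as lower. Among the subunits of the phagocyte enzyme, Cybb (gp91phox) was at -0.04 ± 0.16 and Ncf4 (p40phox) at -0.35 ± 0.59 (log2, SD, n = 4). The Cybb probe was dim, at a mean level of 6.55 in Tlr2-/- and 6.59 in WT samples, with WT channels well above background on 3 arrays.

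Nos2, the inducible nitric oxide synthase, was slightly higher in the Tlr2-/- sample of every pair and close to background throughout. Its probe is printed as 10 spots on each array, of which 34 in all were used. Of these spots 31 were higher and 3 lower in the Tlr2-/- channel, and all 3 belonged to pair 1. Spots of an array are repeat printings that share its samples and dyes, so they are not replicates. The channel level was 6.43, 6.50, 6.61 and 6.78 in Tlr2-/- samples, against 6.35, 6.33, 6.36 and 6.53 in WT samples (log2, pairs 1, 2, 4 and 5). The groups overlapped through the WT sample of pair 5.

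The median signal of Nos2 was 65.5, 69, 89 and 114.5 in Tlr2-/- channels, where the negative control spots had medians of 59, 60, 71 and 71. In WT channels it was 76, 76, 62.5 and 63, with negative controls at 71, 71, 61 and 59. The excess over negative controls was thus 6.5, 9, 18 and 43.5 in Tlr2-/- channels and 5, 5, 1.5 and 4 in WT channels. Nos2 was well above background on 3 arrays in Tlr2-/- and on 0 in WT channels, and no spot was saturated. Of the Tlr2-/- spots used, 2 of 8 and 5 of 9 were above background in Cy3 (pairs 1 and 2). In Cy5 (pairs 4 and 5) 9 of 9 and 8 of 8 were, so detection differed by dye as well. Of the WT spots used, 2 of 9 were above background in pair 2 and 0 in the other pairs. With no WT channel well above background, the fold is given as a bound of at least 1.14-fold, a point value without its error. The mean level was 6.58 in Tlr2-/- and 6.39 in WT samples (log2). The bound equals the measured mean ratio, because on each array the WT level exceeded the lowest level well above background. It is therefore no firm limit, and the limma 95% interval of 0.968-fold to 1.34-fold includes no change. The Tlr2-/- mean includes the sample of pair 1, which was not well above background either. Nos2 did not pass the test (limma adjusted p = 0.627).

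The log2 ratios of Nos2 were 0.08, 0.17, 0.25 and 0.25, a mean of 0.19 ± 0.08 (SD, n = 4, limma 95% interval -0.05 to 0.42). Being higher on all 4 arrays is shared by 7.18% of all genes. Nos2 entered the genes tested only through its Tlr2-/- channels, so its direction is not independent of the filter. Without pair 1 the mean was 0.22. It was 0.12 with the Tlr2-/- sample in Cy3 (pairs 1 and 2) and 0.25 with it in Cy5 (pairs 4 and 5). The size depended on the processing. With loess kept, the mean was 0.45 ± 0.23 when a constant of 5 in place of 50 was added to each channel, and 0.25 ± 0.21 with no background correction. With Agilent's own background-subtracted signals and median centring, which change both steps together, the ratios were 1.64, 1.03, 2.15 and 2.38, a mean of 1.80 ± 0.60. Under that last setting Nos2 passed the submitters' rule, and the limma adjusted p was 0.261. Duoxa2, with bright spots, was at 1.16 to 1.18 under these settings, and Nox1 kept the sign of each pair with ratios between -2.73 and 2.90.

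**Figure D3:**
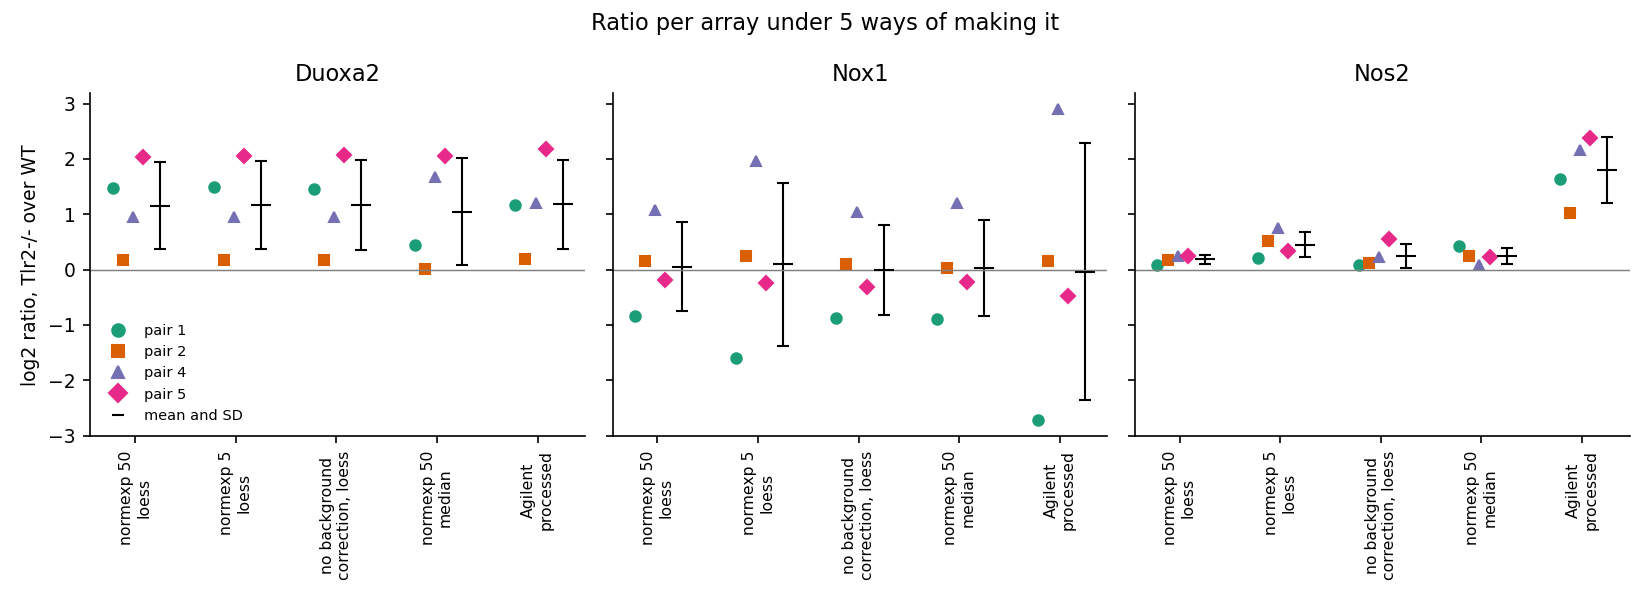
Log2 ratio (Tlr2-/- over WT) of the 3 members on each array under 5 combinations of background correction and normalisation, with the mean and SD over 4 arrays in black. Duoxa2 changes little except for pairs 1 and 4 under median centring, Nox1 spreads around 0 in all, and Nos2 is above 0 in all with a mean between 0.19 and 1.80.

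Macrophages and neutrophils also make NOS2. Of 10 macrophage markers 9 were measured, 8 of them above background on all arrays, with a summed level of 11.64 to 11.97 in Tlr2-/- samples and 11.99 to 12.40 in WT samples (log2). That sum was carried by Cd14, and without it the ranges overlapped, at 10.06 to 10.38 in Tlr2-/- and 10.22 to 10.42 in WT samples. The median log2 ratio of the 9 markers was 0.12, -0.41, -0.21 and -0.09 for pairs 1, 2, 4 and 5. Of 10 neutrophil markers only 2, S100a9 and Mpo, passed the filter, while S100a8, Cxcr2 and Csf3r did not. The summed level of the 2 was 7.76 to 8.36 in Tlr2-/- samples and 7.82 to 8.40 in WT samples. The part of these cells in the Nos2 signal was not tested.

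Of 20 genes for nitric oxide synthases and for arginine and tetrahydrobiopterin metabolism 18 were measured, limma called 0, the rule took 0 as higher and 1 as lower, and the median mean log2 ratio was -0.07. The rule took 0.762% of all genes tested as higher and 0.701% as lower. The listed gene taken was Arg2, a mitochondrial arginase that uses the same substrate as NOS2. It was lower in the Tlr2-/- sample of every pair, at -0.75, -0.28, -2.01 and -1.42, a mean of -1.12 ± 0.76 (log2, SD, n = 4, limma adjusted p = 0.595). Its level was 9.60, 9.14, 7.91 and 8.90 in Tlr2-/- samples and 10.36, 9.43, 9.93 and 10.32 in WT samples, which overlapped through pairs 1 and 2. The authors' deposited table of decreased transcripts gives Arg2 an average ratio of 0.476. Gch1, the first enzyme of tetrahydrobiopterin synthesis, was at -0.74 in pair 1 and 0.80, 1.49 and 0.85 in the others. The later or recycling enzymes Spr and Qdpr were at -0.44 ± 0.67 and -0.22 ± 0.37, and the endothelial synthase Nos3 at 0.04 ± 0.06. The Nos3 probe was dim, at a mean level of 6.50 in Tlr2-/- and 6.46 in WT samples (log2). Its WT channel was well above background on only 2 arrays, so its small ratio is no measure of an absent change.

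Genes that remove the products of these oxidases did not pass either test. Among peroxidases, catalase and superoxide dismutases, 18 of 20 were measured, the rule took 0 in either direction, limma called 0, and the median mean log2 ratio was -0.15. Sod2, the mitochondrial superoxide dismutase, was lower in every pair, at -0.53, -0.74, -0.36 and -0.20 (mean -0.46 ± 0.23, SD, n = 4, limma adjusted p = 0.595). The peroxiredoxins Prdx3 and Prdx5 were at -0.29 ± 0.43 and -0.64 ± 0.86. Of the Nrf2 target and thiol antioxidant genes all 14 were measured, 0 passed limma or the rule, and the median was 0.12. Over all genes tested the rule took 0.762% as higher and 0.701% as lower, limma called 0, and the median was -0.01. A count of 0 in lists this small is therefore near the share over all genes. Nqo1, a quinone reductase, was at 0.39 ± 0.53, Nfe2l2, which codes for Nrf2 itself, at 0.23 ± 0.48, and the mitochondrial thioredoxin Txn2 at -0.22 ± 0.13.

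Among cytokines, receptors and factors known to induce DUOX2 or NOS2, 21 of 27 were measured, limma called 0, and the rule took 1 as higher and 0 as lower. Their median mean log2 ratio was -0.01. Over all genes tested the rule took 0.762% as higher and 0.701% as lower. The cytokine genes Il17a, Il22 and Ifng had a probe that did not pass the filter. Relb, an NF-kB subunit, was at -0.28 ± 0.10, Tnfrsf1a, a receptor of TNF, at 0.28 ± 0.21, and Il17rc, a subunit of the IL-17 receptor, at 0.24 ± 0.17.

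Other epithelial genes induced by microbes or by IL-17 and IL-22 went both ways. Of 23 listed 20 were measured, limma called 0, the rule took 2 as higher and 2 as lower, and the median mean log2 ratio was -0.08. Over all genes tested the rule took 0.762% as higher and 0.701% as lower. Retnlb, a goblet cell protein with antibacterial activity, was at 2.76, 0.83, 2.29 and 2.70, and like Duoxa2 it was lowest in pair 2. Zc3h12a, an RNase that limits inflammatory transcripts, was at 1.15, 0.46, 0.68 and 0.48. Reg3g, a lectin that kills Gram-positive bacteria, was at -0.12, -2.02, -4.15 and -1.55. Reg3b, its close paralog, was at -0.32, -1.74, -4.04 and -1.30, with WT channels saturated on 2 arrays. Saa3 and Ccl20, an acute phase protein and a chemokine, were at -0.32 ± 0.15 and -0.49 ± 0.54, and the NF-kB regulator Nfkbiz at 0.46 ± 0.38 (log2, SD, n = 4). The limma adjusted p was 0.595 for Retnlb, Zc3h12a, Reg3g and Reg3b alike.

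**Figure D4:**
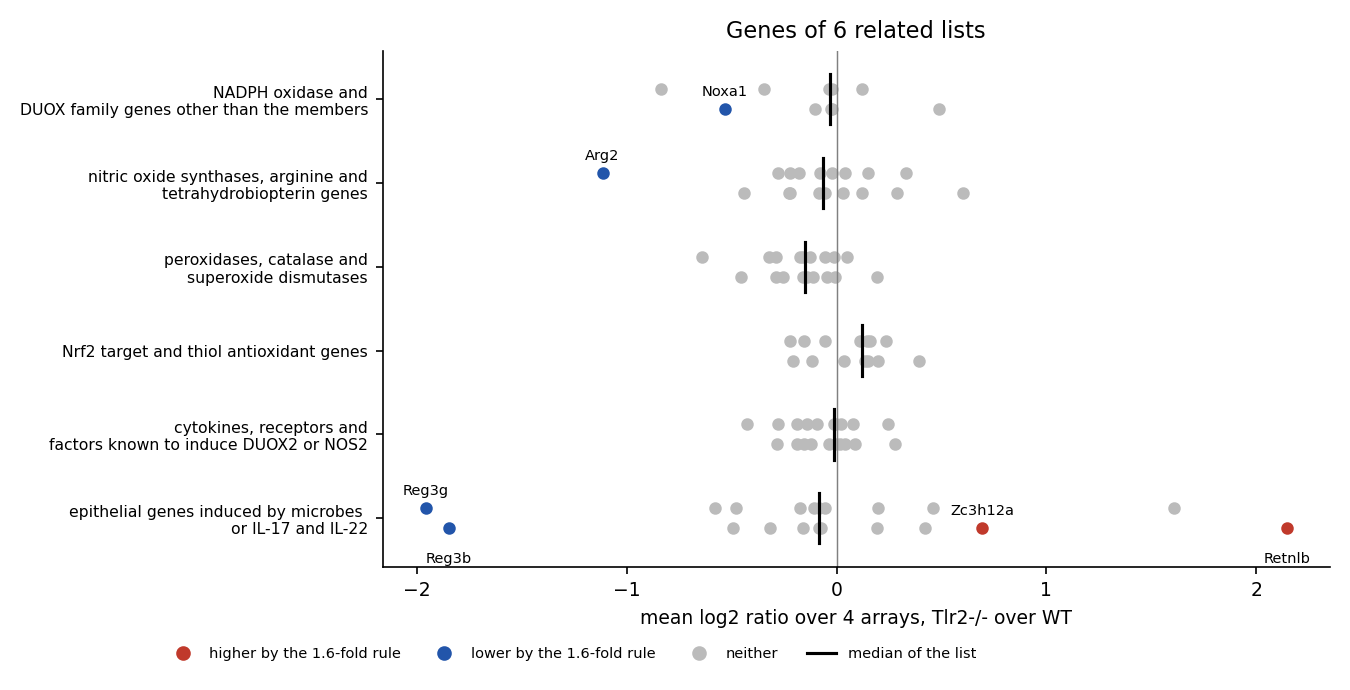
Mean log2 ratio (Tlr2-/- over WT, 4 arrays) of measured genes of 6 lists related to the oxidases, with the list median as a black bar. Red and blue mark genes that passed the 1.6-fold rule as higher or lower, which are named, and list medians, over all measured genes, lie between -0.15 and 0.12. A counted gene that is not reported here is not drawn.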

How the data were processed

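Scanner files hold the intensity of each spot in both channels with its local background, as the authors deposited them. The version of Agilent Feature Extraction is 10.5.1.1 in the headers, whereas the submitters' processing notes name 8.5.1.1. The files also give a log10 ratio per spot, deposited by the authors, which served only to check their tables of hits. Those tables, deposited by the authors, list 1 knockout over wild-type ratio for each array. Their array numbers are tied to no sample by a label, and how they were normalised is not stated. Of 605 of their transcripts found on the arrays, 358 had all 4 ratios within 1% of a spot's deposited ratio.

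Median intensity went through normexp background correction (offset 50) and loess within each array (limma 3.58.1, R 4.3.3). Loess gave control spots a weight of 0, and these and outlier spots were then dropped. Spots of a probe were averaged. A probe was kept if, for one genotype, a share of 0.5 of its spots or more exceeded background on 2 arrays or more, and a gene was represented by its brightest probe. Channel levels were also scaled between arrays (Aquantile) and are open to dye bias. Symbols came from accessions through RefSeq (GRCm38.p6), and 25111 of 41174 probes had one. The log2 ratios were tested with lmFit and eBayes with a dye term, with Benjamini-Hochberg adjustment over 14698 genes. The 4 arrays shared 1 slide, which leaves no slide effect to test. The 2 methylation arrays were not used.

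A fold bound sets the mean level of the knockout against the higher, per array, of the wild-type level and the lowest level well above background. Named genes are the members, Tlr2, genes of 6 pathway lists that limma calls or the submitters' rule takes with the 3 further genes of smallest p, and the 3 genes most like each member that changed 1.6-fold on average. Duox1, Cybb, Nos3, the Hox genes, Cd14 and Cidec were picked with their values known. A gene that the rule names is not reported here and stays in the counts. The members and lists were chosen with earlier results of these data known.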

Additional observations from a re-analysis of the deposited data

Results flagged for a closer look

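Of 56 values examined for an array far from the other 3, 3 passed Dixon's limit for the gap over the range, and chance gives about 1 in 20. The log2 ratio of Cirbp was 0.40 in pair 2 and 1.20 to 1.36 in the others (gap over range 0.838). The median log2 ratio of the NADPH oxidase and DUOX family genes other than the members was -0.27 in pair 2 and -0.02 to 0.02 in the others (0.866). The WT level of Nos2 was 6.53 in pair 5 and 6.33 to 6.36 in the others (0.846, log2).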

How the results depend on the processing

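Duoxa2 stayed higher and kept passing the submitters' rule under all 13 alternatives, with a mean log2 ratio of 0.86 to 1.48 and a limma adjusted p of 0.183 to 1.00. Nos2 stayed higher under 12 alternatives (0.17 to 1.80, limma adjusted p 0.254 to 1.00). The plain mean of Nox1, near 0, changed sign without background correction (-0.0080), with Agilent's processed signals (-0.037) and without pair 4 (-0.29). Leaving out 1 pair gave Duoxa2 0.86 to 1.48, Nox1 -0.29 to 0.35 and Nos2 0.17 to 0.22. These are plain means of the pairs kept, whereas the limma p belongs to the estimate with the dye term. With 1 pair left out the dyes are unbalanced, so that estimate can differ from the mean in size or sign. Requiring every channel above background leaves Nox1 and Nos2 untested. The count that limma called higher was 1 with no dye term and 1 with an offset of 5, an alternative chosen after seeing the data. The count called lower was 2 with no dye term, 2 with an offset of 5, and 1 each with no background correction, processed signals, median centring and the filter on every channel. The submitters' rule took 291 genes as higher and 267 as lower with processed signals, and 45 and 291 with median centring. Leaving out 1 pair gave 93 to 387 higher and 82 to 492 lower, with 387 and 492 reached without pair 1. The test is itself paired, since each array holds a knockout and a wild-type sample. No paired analysis was possible because of that beyond these within-array ratios, which leave no replicate block to add.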
